A study of Mus musculus with 14 samples.

Results

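Gene expression at day 10 of Ocy454 differentiation was compared with gene expression at day 7, using the day 7 and day 10 libraries of the differentiation time course, 4 of the 14 libraries of the series. Ocy454 is a mouse cell line with properties of osteocytes, conditionally immortalized by a thermosensitive large T antigen. Cells of both days were grown to confluence at 33 °C and were then held at 37 °C, where the antigen is inactive, for 7 or 10 days. The study used this line to look for genes that govern osteocyte maturation, and sequenced total RNA from 2 biologic replicates per day. All 4 libraries come from 1 immortalized line in culture, no sample from bone was compared, and time at 37 °C and age of the culture are the same variable here.

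Osteocytes are the former osteoblasts that become buried in bone matrix, where they extend dendrites, sense load and signal to other bone cells. On the way there, osteoblast genes for collagen and mineralizing matrix give way to osteocyte genes such as *Dmp1* and *Sost*. Confluent cultures of such cells also respond to the oxygen, nutrients and cytokines around them, through the hypoxia-inducible factors (HIF), growth factor receptors and interferon signalling.

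The deposited values are CPM, the reads counted on a gene for every 1000000 reads counted on all genes of a library. The libraries hold 33341397 and 28408577 reads on genes at day 7 and 30457415 and 31026870 at day 10. Of 39179 genes in the table, 12725 had a CPM above 1 in at least 1 of the 8 libraries of the time course and were tested, and 356 of these passed only through a day not compared here. Osteoblast markers were present, with 8 of 8 above 1 CPM. Of 7 osteocyte markers, 5 were above 1 CPM in at least 1 library, while *Mepe* reached at most 0.450 CPM and *Fgf23* was listed at 0 in all 4 libraries, which allows up to 0.106 CPM (3 reads) in the shallowest library. The chi-square value between replicates was 2.76 per gene at day 7 and 3.17 at day 10, above the value that counting error alone gives, so they were kept as separate samples.

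Many genes moved between the days, most of them by little. In limma's test on log2(CPM + 1) with Benjamini-Hochberg adjustment, 3798 genes (29.8%) rose and 2399 genes (18.9%) fell at an adjusted p below 0.01, together 48.7% of genes tested, and a gene is said to rise or fall where it passed this threshold. Of these calls, 69.9% had a Log2FC (day 10 minus day 7, on the log2(CPM + 1) scale) of a size below 0.5. With a Log2FC above 1 or below -1 also required, 182 genes (1.43%) rose and 100 genes (0.786%) fell, and the replicates of the 2 days did not overlap for any of the 282. With 2 libraries per day such non-overlap is a weak mark, as *Clip1* and *Hdac5*, which were not called, also showed it. The share of calls that rose depended on the scaling. It was 61.3% on CPM as deposited, 47.8% after TMM scaling, 49.4% after quantile normalization, 48.0% with edgeR and 46.9% with DESeq2 on the reads recovered from the CPM values. Longer genes lay higher at day 10, with a median Log2FC of -0.05 in the eighth of genes with the shortest gene length (up to 1580 bases) and 0.15 in the eighth with the longest (from 7855 bases), against 0.07 over all genes tested, and the part of gene length in the results was examined only by removing this trend. In these bulk samples, fewer cells that express a gene and less of its RNA per cell cannot be told apart.

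**Figure D1:**
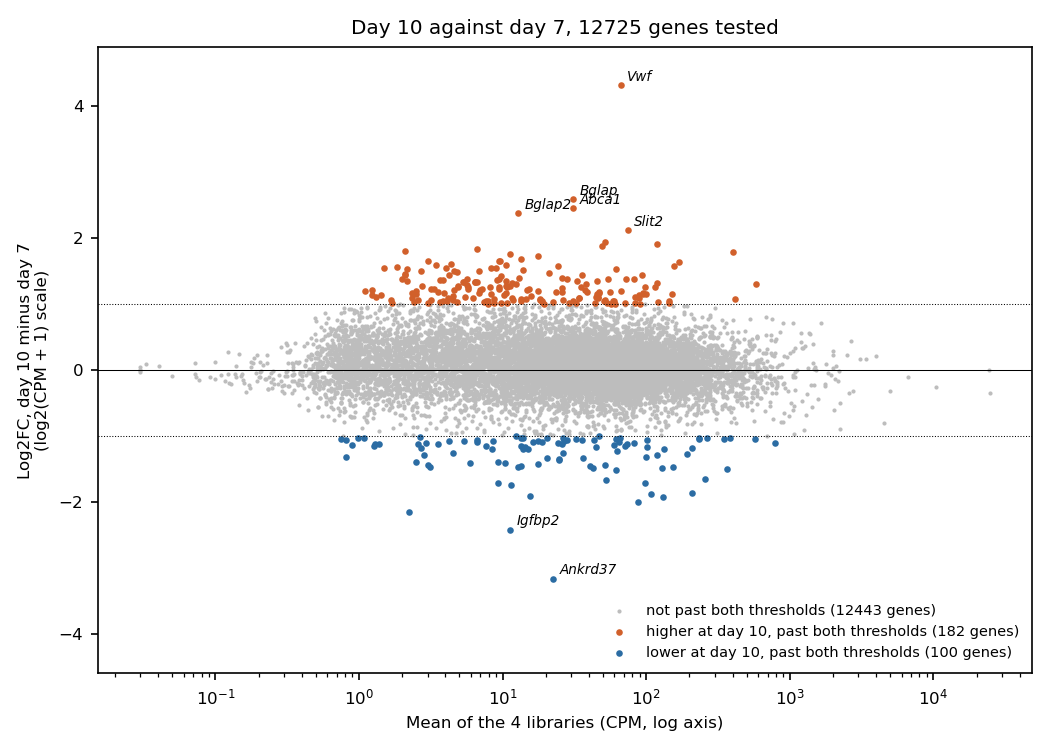
Log2FC of day 10 minus day 7 (vertical axis, log2(CPM + 1) scale) against the mean of the 4 libraries (horizontal axis, CPM on a log axis, values under 0.03 drawn at 0.03), with 1 point per gene tested. The 182 genes higher and 100 genes lower past both thresholds (dotted lines at 1 and -1) are coloured, and *Vwf* and *Ankrd37* lie farthest out in the 2 directions.

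On the log2(CPM + 1) scale, the largest increase was in *Vwf*. This gene, which encodes von Willebrand factor, a large adhesive glycoprotein best known from endothelium and platelets, was at 6.30 and 4.65 CPM in the day 7 replicates and 123 and 131 CPM in the day 10 replicates. The days were far apart, with a ratio of means of 23.3 and a Log2FC of 4.32 ± 0.11 (SE, adjusted p = 2.0e-20 in limma). *Vwf* lies at chromosome 6, 125523737 to 125663642, plus strand (GRCm39). Of the other endothelial markers listed, *Erg*, a transcription factor, fell from 8.79 and 9.01 CPM to 6.01 and 6.16 CPM and *Egfl7*, a secreted EGF-like protein, from 2.25 and 2.57 CPM to 1.54 and 1.13 CPM, a call lost without day 7 replicate 2, without day 10 replicate 2 and with no filter on low values. The defining markers *Pecam1*, *Cdh5*, *Kdr*, *Tek* and *Emcn* did not exceed 0.129 CPM in any of the 4 libraries, and together they summed to between 0.0352 and 0.193 CPM.

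*Bglap*, the osteocalcin gene of mineralizing osteoblasts (chromosome 3, 88290808 to 88291771, minus strand), was at 7.92 and 8.41 CPM at day 7 and 53.8 and 54.4 CPM at day 10. Its Log2FC was 2.59 ± 0.10 (SE, adjusted p = 2.1e-17 in limma). The adjacent copy *Bglap2* went from 3.12 and 3.84 CPM to 22 and 22.7 CPM. These copies are nearly identical in sequence, as is *Bglap3* (0.870 and 0.704 to 1.48 and 1.64 CPM, which also rose), so that reads may have been split between them or left uncounted. *Abca1*, a transporter that exports cholesterol, was at 8.55 and 9.12 CPM and then 49.2 and 57.3 CPM, a Log2FC of 2.46 ± 0.09 (SE).

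Among the other large increases, *Slit2*, a secreted guidance ligand of the Robo receptors, stood at 27.8 and 26.3 CPM at day 7 and 120.3 and 123 CPM at day 10. *Plxna2*, a plexin receptor for semaphorins, stood at 48.8 and 49.7 CPM and 176 and 203 CPM. Both sets of replicates were tight against the step between the days. *Pdgfd*, a platelet-derived growth factor ligand, had a Log2FC of 1.95 ± 0.06 (SE), and *Ppap2b*, a lipid phosphate phosphatase, one of 1.88 ± 0.06. *Mcf2l*, a guanine nucleotide exchange factor, and *Lrrc17*, a secreted leucine-rich repeat protein, had Log2FC of 1.83 and 1.76. *Gpnmb*, a transmembrane glycoprotein of osteoblasts and of macrophages, had the highest CPM of these genes, with 183 and 178 CPM at day 7 and 627 and 628 CPM at day 10.

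On the same scale, the largest decrease was in *Ankrd37*. This target of HIF (chromosome 8, 46449939 to 46458744, minus strand), was at 39.9 and 42.9 CPM at day 7 and 4.47 and 3.09 CPM at day 10. The ratio of means, day 7 over day 10, was 11 (Log2FC -3.16 ± 0.12 SE, adjusted p = 2.1e-17 in limma). *Igfbp2*, a binding protein for insulin-like growth factors, went from 20.7 and 18.8 CPM to 2.73 and 3.03 CPM. *Acta2*, smooth muscle actin, went from 141 and 139.8 CPM to 38.9 and 30.4 CPM, a Log2FC of -2.00 ± 0.06 (SE).

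*Lamb1*, *Nid2* and *Col15a1*, which encode a laminin chain, nidogen-2 and a collagen of the basement membrane zone, were also among the 12 largest decreases. *Nid2* was at 175 and 167 CPM at day 7 and 49.8 and 42.2 CPM at day 10, and *Lamb1* at 23.5 and 26.5 CPM and 6.21 and 5.58 CPM. *Col15a1* had a Log2FC of -1.67 ± 0.07 (SE). The remaining genes of the 12 were *Cdsn* (corneodesmosin), *Fam132a* (a secreted protein of the C1q and TNF related family), *Spock2* (a proteoglycan), *Klf2* (a transcription factor), *Ndrg2* and *Cryab* (a small heat shock protein), with Log2FC from -1.93 to -1.65. *Fam132a* was at 319 and 335 CPM at day 7 against 86 and 91.9 CPM at day 10, and *Cryab* at 395 and 383 CPM against 119 and 128 CPM.

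**Figure D2:**
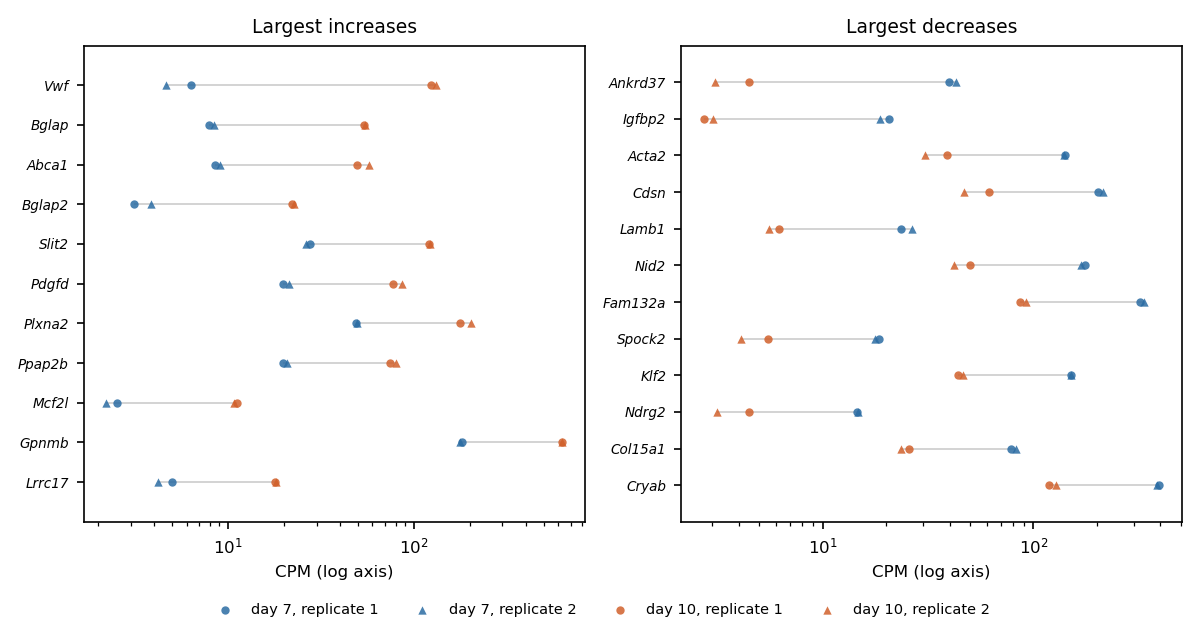
CPM (log axis) in each of the 4 libraries for 11 of the 12 genes with the largest increases and the 12 with the largest decreases, where circles are replicate 1, triangles replicate 2, blue day 7 and orange day 10. In each gene the 2 replicates of a day lie closer to each other than to those of the other day, as for *Vwf* at 6.30 and 4.65 against 123 and 131 CPM. Replicates that do not overlap between the days were required when these genes were selected.

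Gene lists chosen for bone cells were then read against the shares of all genes that rose or fell. Interferon-stimulated genes, the antiviral genes that interferon receptors turn on, had the highest median Log2FC among lists with at least 10 tested genes. Of 53 tested, 43 (81.1%) rose and 4 (7.55%) fell, against 29.8% and 18.9% of all genes tested. The median Log2FC was 0.72, against 0.07 over all genes. Past the fold threshold, 16 rose and 1 fell, against 1.43% and 0.786% of all genes tested. The summed level of the list was 952 and 943 CPM at day 7 and 1353 and 1336 CPM at day 10. Restricted to members averaging 5 CPM or more, 26 of 30 rose, against 3390 of all 10249 genes tested under that restriction.

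**Figure D3:**
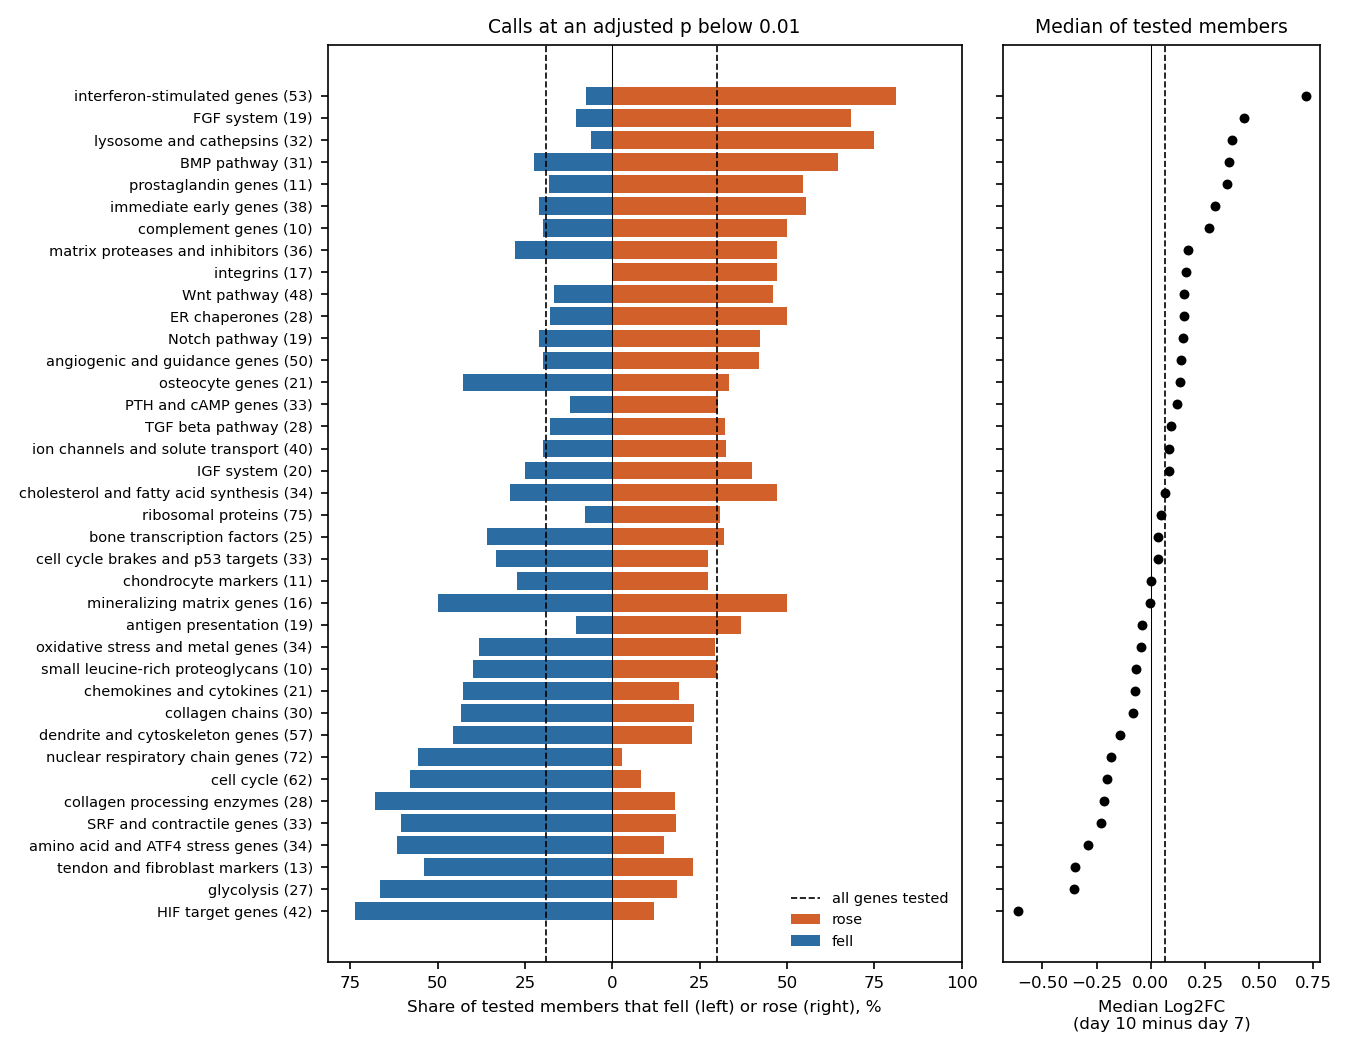
Left, share of the tested members of each list with at least 10 tested genes that fell (blue, to the left) or rose (orange, to the right) at an adjusted p below 0.01, with dashed lines at the shares of all genes tested, 18.9% and 29.8%. Right, median Log2FC of the tested members (dots) with a dashed line at 0.07 for all genes, and the number tested in parentheses. Interferon-stimulated genes (0.72) and HIF target genes (-0.61) stand at the 2 ends.

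The interferon response element, the DNA motif found at many of these genes, was looked for as the letters GAAA, then 2 bases of any kind, then GAAA again, on either strand, in RefSeq promoters (250 bases before to 50 bases after the start, GRCm38.p6). A promoter was available for 38 of the 53 tested list genes, and 19 of them (50%) held the motif, against 337 of 9249 genes tested (3.64%) with a promoter. Here and in the motif counts below, list genes were counted whichever way they moved. A link between the motif and the change was not tested. The 5 genes below had the largest increases among the list genes with the motif before the start, and were chosen after their values were seen. Each window is 100 bases, written on the strand of the gene with the motif in capitals (as TTTC runs where it lies on the other strand). They are the windows of *Irgm2* (chr11:58214868-58214967), *Ifit1* (chr19:34640759-34640858), *Igtp* (chr11:58199456-58199555), *Gbp3* (chr3:142559944-142560043) and *Gbp7* (chr3:142530236-142530335), all on the plus strand.
Irgm2: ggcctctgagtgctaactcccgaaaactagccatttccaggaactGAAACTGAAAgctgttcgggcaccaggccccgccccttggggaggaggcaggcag
Ifit1: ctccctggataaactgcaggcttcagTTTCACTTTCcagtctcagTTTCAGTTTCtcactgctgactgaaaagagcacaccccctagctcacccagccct
Igtp: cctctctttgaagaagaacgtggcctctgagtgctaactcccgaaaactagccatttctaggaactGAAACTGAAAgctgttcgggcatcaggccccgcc
Gbp3: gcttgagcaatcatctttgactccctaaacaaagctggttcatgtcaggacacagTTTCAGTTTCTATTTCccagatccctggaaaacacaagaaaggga
Gbp7: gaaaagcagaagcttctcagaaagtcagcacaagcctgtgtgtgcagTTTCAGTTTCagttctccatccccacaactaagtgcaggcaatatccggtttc
A match is a run of letters in the window and does not show that a factor was bound there.

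Among the effectors, *Irgm2*, an immunity-related GTPase of vacuole defence, was at 4.26 and 3.98 CPM at day 7 and 14.7 and 15.5 CPM at day 10. Its Log2FC was 1.65 ± 0.10 (SE, adjusted p = 3.3e-13 in limma), the largest of the list. *Igtp*, a close relative whose window above is alike in most bases, went from 4.47 and 3.24 CPM to 10.8 and 9.51 CPM, and reads may be shared between such copies, as in the guanylate binding protein (*Gbp*), *Oas* and *Ifit* families. *Rtp4* rose from 3.24 and 2.96 CPM to 11.4 and 9.80 CPM. *Oasl2*, a relative of the oligoadenylate synthetases, which sense double-stranded RNA, rose from 6.48 and 6.90 CPM to 20.4 and 18.3 CPM. *Ifit1*, which binds viral RNA, was at 0.990 and 2.04 CPM and then 4.30 and 5.29 CPM, so that its day 7 replicates differed from each other but lay below both day 10 replicates.

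*Usp18*, the protease that removes ISG15 from proteins and dampens the interferon receptor, was at 2.04 and 2.08 CPM at day 7 and 7.81 and 7.41 CPM at day 10 (Log2FC 1.49 ± 0.12 SE). *Dhx58*, an RNA sensor of the RIG-I family, was at 3.39 and 3.31 CPM and 9.98 and 10.1 CPM. Of the transcription factor genes, those that rose included *Irf7* at 1.08, *Irf9* at 0.90 and *Stat2* at 0.80 on the Log2FC scale. The receptor chain *Ifnar1* went from 115 and 113 CPM to 126 and 125 CPM and rose slightly (0.14), while *Ifnar2* fell (-0.27). These factors and receptors were named after their values were seen.

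The 4 members that fell were the chemokines *Ccl5* and *Cxcl10*, the ubiquitin-like modifier *Isg15* and the exonuclease *Isg20*. *Cxcl10* was no longer called with no filter on low values or without day 7 replicate 1, day 10 replicate 1 or day 10 replicate 2. *Isg15* was at 63.4 and 62.6 CPM at day 7 and 38.2 and 39.5 CPM at day 10, and *Ccl5* at 1.56 and 1.34 CPM and 0.197 and 0.161 CPM. Antigen presentation genes, many of which respond to interferon, did not follow as a list. Of 19 tested, 7 (36.8%) rose and 2 (10.5%) fell, against 29.8% and 18.9% of all genes, and 4 to 7 rose and 1 to 4 fell across the alternatives. They had a median Log2FC of -0.04 that was above 0 with quantile normalization (0.01), among members averaging 5 CPM or more (0.09) and without day 7 replicate 1. *Nlrc5*, the activator of class I genes, rose from 30.6 and 26.9 CPM to 64 and 66.9 CPM and *B2m*, the light chain of class I molecules, from 1023 and 1015 CPM to 1357 and 1394 CPM.

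**Figure D4:**
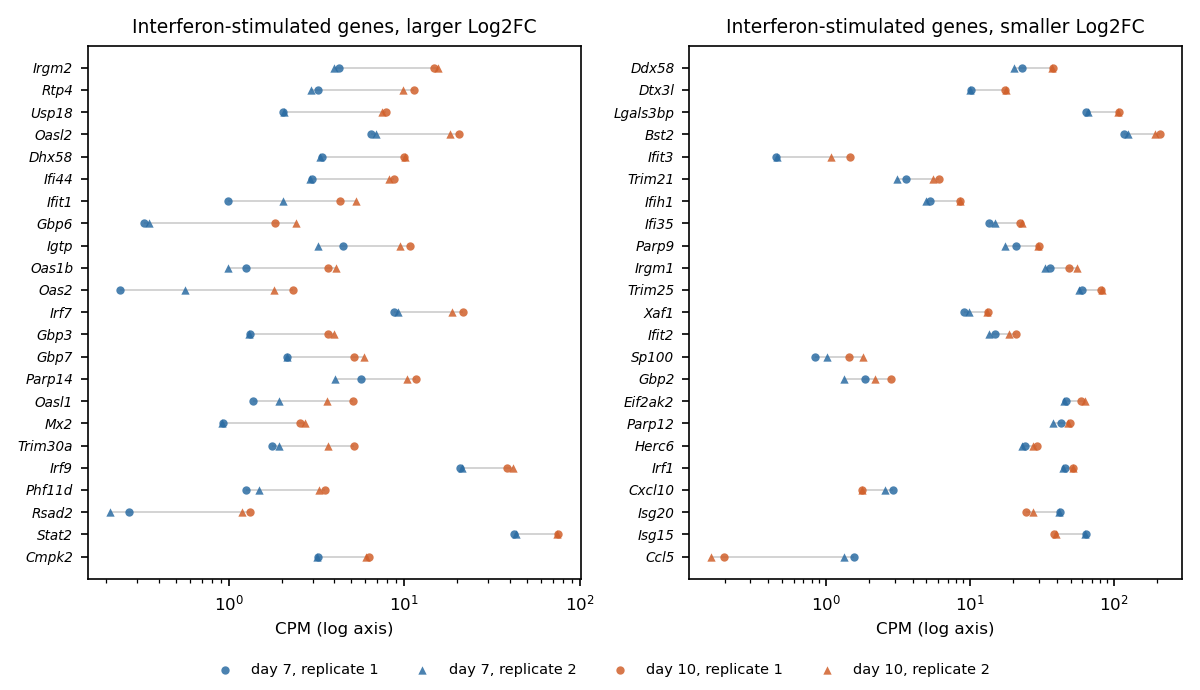
CPM (log axis) in each of the 4 libraries for 46 of the 47 interferon-stimulated genes that rose or fell, ordered by Log2FC, with day 7 in blue, day 10 in orange, replicate 1 as circles and replicate 2 as triangles. From *Irgm2* at the top down to *Irf1* the day 10 replicates lie to the right of day 7, and the last 4 genes (*Cxcl10*, *Isg20*, *Isg15*, *Ccl5*) lie to the left.

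HIF target genes went the other way. Of 42 tested, 31 (73.8%) fell and 5 (11.9%) rose, against 18.9% and 29.8% of all genes tested, and the median Log2FC was -0.61. Past the fold threshold, 6 fell, against 0.786% of all genes tested. The summed level was 9135 and 9100.3 CPM at day 7 and 6102 and 5726 CPM at day 10. The core of the hypoxia response element was searched as ACGTG on either strand, so that the palindrome CACGTG counts on both. It was in the promoters of 26 of the 34 list genes with a promoter (76.5%), whichever way they moved, and of 2744 of the 9249 genes tested (29.7%). The windows below are from the list genes with the largest decreases among those with the motif before the start, chosen after their values were seen: *Ankrd37* (chr8:45999851-45999950, minus strand), *Ddit4* (chr10:59951906-59952005, minus strand), *P4ha1* (chr10:59323196-59323295, plus strand), *Rcor2* (chr19:7267294-7267393, plus strand) and *Ak4* (chr4:101419453-101419552, plus strand), in GRCm38.p6.
Ankrd37: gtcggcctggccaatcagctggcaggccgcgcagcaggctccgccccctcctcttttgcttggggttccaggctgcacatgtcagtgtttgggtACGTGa
Ddit4: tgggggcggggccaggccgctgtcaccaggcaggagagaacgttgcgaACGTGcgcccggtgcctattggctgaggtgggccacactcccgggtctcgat
P4ha1: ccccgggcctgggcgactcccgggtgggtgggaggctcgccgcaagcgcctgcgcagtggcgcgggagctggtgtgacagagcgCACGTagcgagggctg
Rcor2: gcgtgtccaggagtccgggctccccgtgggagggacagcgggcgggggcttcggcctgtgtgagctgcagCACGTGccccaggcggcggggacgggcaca
Ak4: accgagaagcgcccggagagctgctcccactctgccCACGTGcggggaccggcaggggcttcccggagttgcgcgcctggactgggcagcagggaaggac
Capitals mark the core, written CACGT where it lies on the other strand. In *Ankrd37* the last base of the core is 2 bases before the start.

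After *Ankrd37*, the members with the lowest Log2FC at a pseudocount of 1 included *Adm*, *Ddit4* and *Bhlhe40*. *Adm*, the vasodilator peptide adrenomedullin, was at 4.35 and 4.15 CPM at day 7 and 0.263 and 0.0967 CPM at day 10, the last value equal to 3 reads. Its ratio of means, day 7 over day 10, was 23.7, above that of *Ankrd37*. *Ddit4*, an inhibitor of mTORC1, went from 88.8 and 94.1 CPM to 31.1 and 31.7 CPM. *Bhlhe40*, a transcriptional repressor, went from 543 and 543 CPM to 198 and 187 CPM, a Log2FC of -1.49 ± 0.04 (SE, adjusted p = 2.3e-20 in limma). The days did not overlap for any of these genes, which were picked for a large Log2FC. *Ero1l*, an oxidase of the endoplasmic reticulum, and *Stc2*, stanniocalcin-2, had Log2FC of -1.23 and -1.20.

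*Vegfa*, the main angiogenic ligand, fell from 251 and 249 CPM to 178 and 167 CPM, and *Car9*, the carbonic anhydrase that the study considered as a surface marker, from 146 and 145 CPM to 125 and 120.0 CPM (Log2FC -0.25 ± 0.05 SE). The 5 members that rose were *Pfkfb4*, *Pfkfb3*, *Kdm3a*, *Tfrc* and *Bhlhe41*, with Log2FC from 0.33 to 0.62. The HIF subunit gene *Hif1a* was at 204 and 189.5 CPM at day 7 and 227 and 234 CPM at day 10, and *Epas1*, which encodes the other main subunit, at 88.3 and 87.4 CPM and 68.2 and 70.9 CPM. The former rose and the latter fell, and both were named after their values were seen.

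Genes of glycolysis mostly fell. Of 27 tested, 18 (66.7%) fell and 5 (18.5%) rose, against 18.9% and 29.8% of all genes tested, with a median Log2FC of -0.35. *Aldoa*, aldolase, went from 1155 and 1121 CPM to 677 and 639 CPM, and *Eno1*, enolase, from 533 and 536 CPM to 313 and 297 CPM. *Gapdh*, often used as a reference gene, went from 183 and 181 CPM to 106 and 98.1 CPM (Log2FC -0.83 ± 0.05 SE, adjusted p = 1.1e-13 in limma). *Pdk4*, the kinase that shuts pyruvate dehydrogenase, rose from 14.5 and 13 CPM to 34.2 and 41.4 CPM, and *Eno2*, the neuronal enolase, had a Log2FC of 0.71. The core ACGTG was in 16 of 26 glycolysis promoters (61.5%), against 29.7% of genes tested with a promoter. The HIF and glycolysis lists share members such as *Pgk1*, *Ldha*, *Slc2a1* and *Pdk1*, so their counts are not independent.

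Nuclear genes of the respiratory chain fell by small steps, while the measured genes of the mitochondrial genome rose. Of 72 nuclear genes, 40 (55.6%) fell and 2 (2.78%) rose, against 18.9% and 29.8% of all genes tested. The median Log2FC of the 72 was -0.18, with single values from -0.48 to 0.53. *Ndufs4*, a complex I subunit, was at 47 and 48.1 CPM at day 7 and 34.9 and 32.7 CPM at day 10. All 7 mitochondrial protein genes tested rose, with a median of 0.40, where 5 to 7 rose across the alternatives and *mt-Co1* lost its call in 4 of 16, with TMM scaling, no filter on low values or no variance trend and without day 7 replicate 1. Of these, *mt-Nd2* went from 811 and 776 CPM to 1243 and 1356 CPM. The other 6 mitochondrial protein genes were listed at 0 in all 4 libraries. The mitochondrial ribosomal RNA genes rose too, *mt-Rnr2* from 78.5 and 84.3 CPM to 246 and 267 CPM and *mt-Rnr1* from 75.4 and 83 CPM to 159 and 167 CPM, and the part of RNA composition or library preparation in this was not tested.

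Of 21 osteocyte genes tested, 7 (33.3%) rose, near the 29.8% of all genes tested, and 9 (42.9%) fell, against 18.9% of all genes, with a median Log2FC of 0.13 that was -0.14 among members averaging 5 CPM or more. *Sost*, which encodes the Wnt antagonist sclerostin, was at 0.660 and 0.669 CPM at day 7 and 3.45 and 3.26 CPM at day 10 (Log2FC 1.39 ± 0.13 SE, adjusted p = 7.6e-10 in limma). *Dmp1*, a matrix phosphoprotein of osteocytes, went from 22.3 and 20.5 CPM to 44.3 and 49 CPM (Log2FC 1.09 ± 0.08 SE). For both genes, which are among the members with the largest Log2FC, each day 10 replicate was above each day 7 replicate. *Gja1*, connexin 43 of the gap junctions between dendrites, rose from 302 and 289 CPM to 468 and 540.1 CPM. *Itgb3*, the integrin chain CD61 that the study used to sort cells, rose from 13.9 and 11 CPM to 19.6 and 19.9 CPM (Log2FC 0.64 ± 0.08 SE).

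The osteocyte genes that fell included *Tnfrsf11b*, the decoy receptor osteoprotegerin, from 241 and 213 CPM to 79.5 and 83.7 CPM. Its ligand gene *Tnfsf11* (RANKL) had a Log2FC of 0.30 and was not called. *Irx5*, a homeobox factor, fell from 167 and 173 CPM to 71.2 and 67.6 CPM, and *Pth1r*, the parathyroid hormone receptor, from 1094 and 1143 CPM to 698 and 731 CPM. *Phex*, an endopeptidase of phosphate balance, was at 22.6 and 26.6 CPM at day 7 and 18.1 and 19.6 CPM at day 10 (Log2FC -0.36 ± 0.09 SE, adjusted p = 0.0017 in limma). Its drop was small and was not called under 5 of the 16 alternatives.

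Of 16 mineralizing matrix genes tested, 8 (50%) rose and 8 fell, against 29.8% and 18.9% of all genes tested. Across the alternatives, 6 to 8 rose and 7 or 8 fell. *Spp1*, osteopontin, rose from 337 and 327 CPM to 783 and 868 CPM (Log2FC 1.31 ± 0.04 SE), alongside the osteocalcin genes above. *Ibsp*, bone sialoprotein, fell from 5798 and 5729 CPM to 3187 and 3426 CPM (Log2FC -0.80 ± 0.04 SE), and *Mgp*, matrix Gla protein and an inhibitor of calcification, from 169 and 166 CPM to 87.1 and 81.1 CPM. *Tnn*, tenascin-N, had the lowest Log2FC of the list, -1.35. *Sp7*, the osterix transcription factor of osteoblasts, fell from 726 and 708 CPM to 573 and 603 CPM, and *Runx1* from 44.9 and 43.1 CPM to 21 and 20.3 CPM. Of 25 bone transcription factors, 8 (32%) rose and 9 (36%) fell, against 29.8% and 18.9% of all genes tested.

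**Figure D5:**
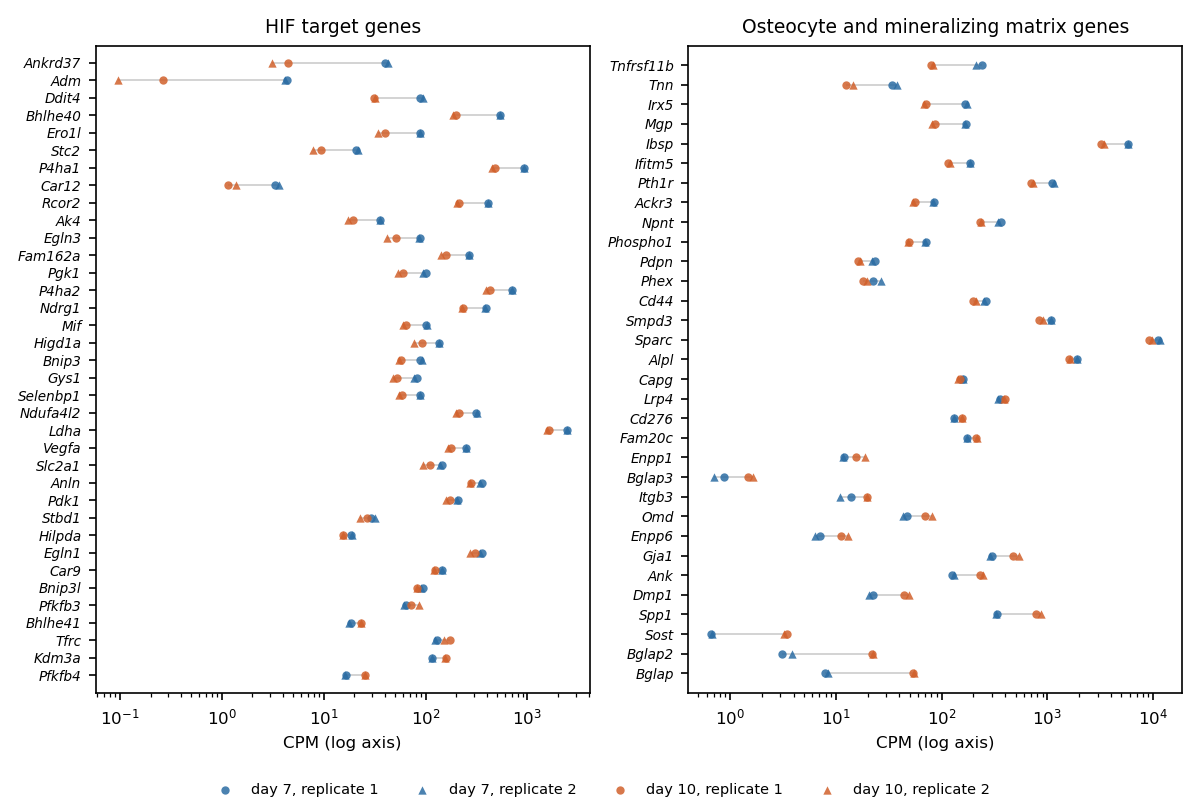
CPM (log axis) in each of the 4 libraries for the 36 HIF target genes that rose or fell (left) and the 32 osteocyte or mineralizing matrix genes that did (right), ordered by Log2FC, with day 7 in blue, day 10 in orange, replicate 1 as circles and replicate 2 as triangles. *Ankrd37* and *Adm* show the widest steps on the left, and *Bglap*, *Bglap2* and *Sost* on the right.

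The collagen apparatus fell in part. Of 30 collagen chain genes tested, 13 (43.3%) fell and 7 (23.3%) rose, against 18.9% and 29.8% of all genes tested. Without the filter on low values, 8 of the 30 fell. Of the 2399 genes that fell with the filter, 1770 were still called as falling in that fit. *Col1a1*, a chain of type I collagen and the gene with the highest mean CPM among those called, was at 27209.6 and 27895 CPM at day 7 and 20831 and 22521 CPM at day 10 (Log2FC -0.35 ± 0.09 SE, adjusted p = 0.0012 in limma), and was not called under 5 of the 16 alternatives. *Col5a1* fell more, from 2916 and 2891 CPM to 1606 and 1525 CPM. Of 28 enzymes that modify, cleave or crosslink collagen, 19 (67.9%) fell and 5 (17.9%) rose (3 without day 10 replicate 2). For all genes tested the shares were again 18.9% and 29.8%. *Lox*, lysyl oxidase, fell from 794 and 751 CPM to 367 and 378 CPM (Log2FC -1.05 ± 0.04 SE), and *P4ha1*, a prolyl hydroxylase that is also in the HIF list, from 926 and 918 CPM to 477 and 447 CPM. *Loxl1* rose, with a Log2FC of 0.87.

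Genes listed for contraction and for SRF, the transcription factor that follows the state of actin, mostly fell. Of 33 SRF and contractile genes, 20 (60.6%) fell and 6 (18.2%) rose, against 18.9% and 29.8% of all genes tested. The median Log2FC of the list was -0.23. After *Acta2*, *Tagln*, transgelin, went from 58.5 and 61.4 CPM to 22.8 and 19.6 CPM, and *Myl9*, a myosin light chain, from 60.8 and 56.5 CPM to 29.3 and 25.8 CPM. *Ctgf* was among those that rose, from 22.7 and 22 CPM to 42.9 and 39.2 CPM. *Srf* itself was nearly level, at 117 and 116 CPM and 132 and 126 CPM, and its small rise was not called under 10 of the 16 alternatives. Cell cycle genes fell by small steps, with a median of -0.20. Of 62 tested, 36 (58.1%) fell and 5 (8.06%) rose, against 18.9% and 29.8% of all genes tested. The number that rose was 2 to 5 across the alternatives, and 3 without day 7 replicate 1 or day 10 replicate 1. *Plk1*, a mitotic kinase, went from 46.5 and 48 CPM to 29.6 and 29.8 CPM.

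Genes of the BMP pathway, whose ligands drive bone formation through SMAD1, SMAD5 and SMAD9, mostly rose. Of 31 tested, 20 (64.5%) rose, against 29.8% of all genes tested. The 7 that fell (4 among members averaging 5 CPM or more) were 22.6% of the list, near the 18.9% of all genes. The median Log2FC of the list was 0.36, and 6 members rose past the fold threshold, against 1.43% of all genes tested. Among the direct targets and feedback inhibitors, *Smad6* went from 48 and 51.1 CPM to 136 and 138 CPM (Log2FC 1.45 ± 0.05 SE, adjusted p = 1.3e-18 in limma). *Id2*, an inhibitor of helix-loop-helix factors, went from 17.7 and 18.9 CPM to 47 and 49.2 CPM. *Hey1*, a target shared with the Notch pathway, was at 1.89 and 1.30 CPM and 6.07 and 6.96 CPM. Replicates of these 3 genes, which were picked for a large Log2FC, did not overlap between days. The signal transducer *Smad9* had a Log2FC of 1.30.

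FGF and immediate early genes rose in larger shares than the 29.8% of all genes tested. Of 19 FGF system genes, 13 (68.4%) rose and 2 (10.5%) fell (1 without day 10 replicate 2), the latter against 18.9% of all genes tested. The 3 that rose past the fold threshold, against 1.43% of all genes tested, were the feedback inhibitors *Dusp6*, *Dusp4* and *Spry4*. *Dusp6*, the phosphatase of ERK and a member of both lists, was at 3.09 and 3.31 CPM at day 7 and 10.1 and 9.15 CPM at day 10. Of 38 immediate early genes, which growth factors and stress switch on within minutes, 21 (55.3%) rose, and the list had a median of 0.30. Its summed level went down, from 2290 and 2319 CPM at day 7 to 2194 and 2082 CPM at day 10. The 8 that fell were 21.1% of the list, near the 18.9% of all genes tested. *Nr4a1*, an orphan nuclear receptor, went from 18.3 and 19.1 CPM to 55.7 and 49.3 CPM, and *Egr3* from 3.12 and 2.29 CPM to 9.13 and 8.09 CPM. In the opposite direction, *Klf2* went from 150.1 and 150.3 CPM to 43.9 and 46.3 CPM and *Ier3* from 61.4 and 64.6 CPM to 22.3 and 21.6 CPM. Of 26 immediate early promoters, 17 (65.4%) held the core of the cAMP response element, TGACG, on either strand, against 35.9% of genes tested, and 1 (3.85%) held the AP-1 site TGANTCA, against 5.98%.

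Of 48 Wnt pathway genes tested, 22 (45.8%) rose, against 29.8% of all genes tested, and 8 (16.7%) fell, near the 18.9% of all genes. The ligand *Wnt4* rose from 11.4 and 11.8 CPM to 35.2 and 38.3 CPM (Log2FC 1.58 ± 0.08 SE). *Notum*, a secreted enzyme that inactivates Wnt ligands, rose from 11.7 and 9.93 CPM to 29.1 and 34.1 CPM. *Rspo3*, a ligand that strengthens Wnt signals, and *Lgr6*, a receptor of this ligand family, had Log2FC of 1.28 and 1.27. Past the fold threshold, 5 Wnt pathway genes rose and 4 fell, against 1.43% and 0.786% of all genes tested. The 4 that fell past it were the antagonist *Wif1* (-1.18), the receptor *Fzd2* (-1.08) and the ligands *Wnt11* (-1.07) and *Wnt7b* (-1.03).

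Of 50 angiogenic and axon guidance genes, 21 (42%) rose, against 29.8% of all genes tested. The 10 that fell were 20% of the list, near the 18.9% of all genes, and were 5 without day 10 replicate 2. Beside *Slit2* and *Plxna2*, *Unc5c*, a netrin receptor, went from 0.660 and 0.634 CPM to 3.55 and 3.48 CPM, and *Efnb2*, an ephrin ligand, from 14.4 and 15.7 CPM to 40.4 and 41.4 CPM. *Adm* and *Vegfa* were on the falling side. Of 17 integrin genes, 8 (47.1%) rose and 0 fell in limma's test, against 29.8% and 18.9% of all genes tested. The lowest Log2FC was that of *Itga7*, -0.21, which was not called. With TMM scaling 6 rose and 1 fell, against 2910 and 3174 of all 12725 genes tested. With the length trend removed 6 rose and 3 fell, against 2862 and 3323 of all genes. *Itgb8* had the largest Log2FC of these, 1.26 ± 0.12 (SE), from 5.07 and 5.21 CPM to 13.7 and 13.7 CPM.

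Lysosomal genes rose broadly. Of 32 tested, 24 (75%) rose and 2 (6.25%) fell, against 29.8% and 18.9% of all genes tested, with a median of 0.37. The number that fell was 1 without day 7 replicate 1, day 7 replicate 2 or day 10 replicate 2. *Hexa*, a hexosaminidase subunit, went from 263 and 276 CPM to 561 and 574 CPM (Log2FC 1.07 ± 0.04 SE, adjusted p = 3.6e-18 in limma). *Npc2*, which carries cholesterol out of the lysosome, went from 393 and 394 CPM to 677 and 665 CPM, and *Lamp1*, a protein of the lysosomal membrane, from 1245 and 1246 CPM to 2037 and 2071 CPM. The days did not overlap for any of these, which were picked for a large Log2FC. Of a list of 18 macrophage markers, 3 were tested and 2 rose, *Cd68* from 1.68 and 1.69 CPM to 4.73 and 4.54 CPM and *Cd14* from 3.0 and 3.24 CPM to 5.48 and 6.67 CPM. Of the 8 that define the cell type, *Cd68* and *Fcer1g* were above 1 CPM, *Emr1* and *Tyrobp* were at 0 in all 4, *Ptprc* reached at most 0.0322 CPM, and their sum ran from 3.90 to 8.09 CPM. The part of such cells in the lysosomal genes was not tested.

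The candidates and markers that the study names were read last. Of 22 tested, 8 (36.4%) rose and 8 fell, against 29.8% and 18.9% of all genes tested, 6 were not called, and the study chose several of them on this time course. *Clip2*, the microtubule plus-end protein that the study examined, was at 50.9 and 55.9 CPM at day 7 and 56.2 and 55.1 CPM at day 10. Its replicates overlapped between the days, and its Log2FC was 0.06 with a 95% interval from -0.05 to 0.17. *Clip1*, *Hdac5*, *Fhl3*, *Rpl18* and *Astn1* were not called either. *Cd200* and *Ackr3*, surface proteins, fell, with Log2FC of -0.65 and -0.60, while *Spn* and *Ptger4* rose, with 0.38 and 0.76. *Spn* lost its call with no filter on low values and with no variance trend. *Mmp13*, a collagenase, rose from 6.15 and 6.20 CPM to 11.7 and 11.5 CPM, and *Eif3b*, a translation initiation factor subunit, fell from 465 and 477 CPM to 373 and 365 CPM.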

How the data were processed

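RNA of Ocy454 cells was sequenced on the DNBseq platform, 2 libraries per day. STAR was the authors' aligner and HTSeq-count their counter, and the values they deposited are CPM per gene that sum to 1000000 in each library. The submitters' processing notes name the build GRCm39 without a role, and the annotation and strand setting behind the table are not given in the sources used here. All deposited sample columns of the time course were assigned to days and replicates by their labels. Dividing by what 1 read is worth gave whole reads for 100% of the deposited CPM values (tolerance 0.01), and so the counts. Nothing in the labels says how the replicates of a day were separated, so p-values measure the spread between these libraries only.

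Log2(CPM + 1) values were compared with limma 3.58.1 (R 4.3.3; eBayes with a trend, Benjamini-Hochberg adjustment), all 8 libraries of the 4 days sharing the estimate of the spread, where any of these libraries exceeded 1 CPM. With a pseudocount of 1, Log2FC understates changes of low genes. An edgeR 4.0.16 count test on the recovered reads called 2935 genes higher and 3185 lower at the same threshold. Other alternatives were DESeq2 1.42.0, a pseudocount of 0.1, other filters, TMM, quantile normalization, no trend, a 4-library fit, a replicate block and each library left out. Removal of each library's loess trend (span 0.3) over gene length was added after the data had been seen. The comparison, the members and the 48 gene lists were chosen with earlier results of these data known. Lists are described by counts and medians. Genes named are the 12 largest increases and decreases (mean of at least 5 CPM, no overlap of replicates), those the study names, up to 5 genes per list with the largest size of Log2FC (mean of at least 2 CPM) and the 5 called genes with the highest mean, 230 in all. Other names were chosen after their values were seen. Gene coordinates are from GENCODE M39 (GRCm39), and promoters from RefSeq. Python 3.11.15, pandas 2.3.3 and matplotlib 3.10.9 were used, and scripts were tested on simulated data. Other days and the CD61 sort were not analysed here. Some genes of these lists are not reported here by name.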

Additional observations from a re-analysis of the deposited data

How the results depend on the processing

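Counts of genes past the adjusted p kept within 1.5 times of 3798 higher and 2399 lower under the 16 alternatives, except for 2471 higher with DESeq2. Past the fold threshold, where 182 rose and 100 fell, a pseudocount of 0.1 gave 377 and 175, edgeR 332 and 216, and DESeq2 278 and 199. The cause was not tested for DESeq2 and edgeR, and a smaller pseudocount by construction enlarges the Log2FC of low genes. Leaving out each library in turn gave 3007 to 3203 higher, 1860 to 2155 lower, 188 to 197 higher past the fold and 89 to 114 lower, with the lone replicate of that day assumed to vary like the others. With the replicate block the counts were 3855 and 2441, and 182 and 100 past the fold. Deviations of same-numbered replicates correlated at -0.0057 across genes, so the numbers were not taken as a pairing. TMM gave 2910 higher and 3174 lower, and removal of the length trend 2862 and 3323. Of 224 named genes that were called, 203 stayed called wherever tested and 222 kept their direction. That of *Sparc* was 0 under quantile normalization. Log2FC of *Col5a2* turned from -0.31 to 0.13 under quantile normalization. Of genes not called, *Fhl3* turned to -0.059 with TMM, -0.053 with quantile normalization, -0.055 with edgeR, -0.055 with DESeq2 and -0.014 without the length trend, and ranged from -0.10 to 0.12 without a library. *Astn1* turned to -0.018 with a pseudocount of 0.1, -0.031 with TMM, -0.11 with quantile normalization, -0.063 with edgeR, -0.058 with DESeq2 and -0.11 without the length trend, and ranged from -0.18 to 0.18 without a library. *Clip2* turned to -0.011 with TMM, -0.010 with edgeR and -0.011 with DESeq2, and ranged from -0.0070 to 0.13 without a library. Without the length trend *Clip2* was at -0.033, *Clip1* at -0.078 and *Hdac5* at -0.040. Depth limits genes near 1 CPM, where 1 read is worth 0.030 to 0.035 CPM, and 2 libraries per day limit every test.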

Other observations

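Amino acid supply and ATF4 stress genes mostly fell, with a median Log2FC of -0.29. Of 34 tested, 21 (61.8%) fell and 5 (14.7%) rose (2 without the variance trend), against 18.9% and 29.8% of all genes tested. *Asns*, asparagine synthetase, went from 281 and 272 CPM at day 7 to 175 and 168 CPM at day 10, and *Phgdh*, the first enzyme of serine synthesis, from 142 and 144 CPM to 86.3 and 86.5 CPM. Of the lipid synthesis genes, 16 of 34 (47.1%) rose and 10 (29.4%) fell, against 29.8% and 18.9% of all genes tested. After TMM scaling 13 rose and 14 fell, against 2910 and 3174 of all 12725 genes tested. The 5 members with the largest size of Log2FC were *Acaca*, *Fasn* and *Srebf1*, which act in fatty acid synthesis and rose, with 0.80, 0.71 and 0.76, and *Hmgcs1* and *Mvd*, which act in sterol synthesis and fell, with -0.63 and -0.63.

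Of 11 prostaglandin genes, 6 (54.5%) rose and 2 (18.2%) fell, against 29.8% and 18.9% of all genes tested. *Ptgs1* and *Ptgis*, the constitutive cyclooxygenase and prostacyclin synthase, fell, from 5.16 and 4.96 CPM to 0.821 and 1.61 CPM and from 27.3 and 25 CPM to 9.0 and 9.25 CPM. *Ptgs2*, the inducible cyclooxygenase, rose from 37.6 and 36.2 CPM to 52.1 and 53.7 CPM. In the IGF system, 8 of 20 genes (40%) rose and 5 (25%) fell, against 29.8% and 18.9% of all genes tested. With DESeq2 5 rose and 6 fell, against 2471 and 2795 of all 12725 genes tested. With the length trend removed 5 rose and 7 fell, against 2862 and 3323 of all genes. *Igfbp6*, a binding protein, rose, with a Log2FC of 0.88 ± 0.14 (SE). *Pappa2*, a protease of binding proteins, fell from 19.1 and 21.2 CPM to 6.67 and 6.83 CPM, and *Igfbp4* had a Log2FC of -0.77, beside *Igfbp2*. Among proteases, *Adamts5*, an aggrecanase, rose from 30.3 and 29.2 CPM to 77.8 and 80.7 CPM, and its substrate gene *Acan* fell from 50.4 and 50.9 CPM to 26.8 and 28.7 CPM.

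The lipid droplet gene *Plin4* rose from 4.02 and 4.01 CPM to 14.7 and 15 CPM and the factor *Cebpa* from 17.4 and 19.5 CPM to 29.9 and 27.9 CPM, while *Dgat2*, an enzyme of triglyceride synthesis, fell from 3.69 and 3.66 CPM to 2.43 and 1.97 CPM, a call lost without day 10 replicate 2 and with no filter on low values. Of the other adipocyte markers, *Fabp4*, a fatty acid binding protein not tested because it never exceeded 1 CPM, was at 0.120 and 0.141 CPM at day 7 and 0.722 and 0.677 CPM at day 10. *Adipoq* and *Pparg* reached at most 0.0328 and 0.0645 CPM and *Plin1* was at 0 in all 4 libraries. *Tubb3* and *Tuba1a*, tubulin genes, fell, with Log2FC of -0.89 and -0.66, within a list of 57 dendrite and cytoskeleton genes of which 26 (45.6%) fell and 13 (22.8%) rose, against 18.9% and 29.8% of all genes tested (17 and 8 without the variance trend).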
